A study of Mus musculus with 18 samples.

Results

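The growth hormone axis of the liver was followed through 10 genes, which were all found by gene symbol among the 23474 genes of a bulk mRNA sequencing table. They comprise the receptor Ghr, the transcription factor Stat5b, the feedback inhibitors Socs2 and Cish, the secreted effector Igf1, the transcriptional repressor Bcl6 and the male-biased liver genes Hsd3b5, Cyp4a12a, Cyp4a12b and Cyp2d9. RNA came from the liver and the epididymal white adipose tissue (eWAT) of male mice, 17 weeks old, whose strain is given as C57BL/6J in the growth protocol and as C56BL/6J in the strain field. The mice were caged singly, went onto their diets at 5 weeks and stayed on them for 12 weeks, with 10 mice per diet group. HP mice were prone to a high-fat diet, HR mice were resistant to a high-fat diet, and ND mice were fed normal chow. Each tissue had 3 libraries per diet group. The labels do not say how prone and resistant mice were told apart, nor whether every library stands for its own mouse. The p-values therefore rest on the spread between libraries alone, which may be in part technical.

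The pituitary releases growth hormone in pulses, which are well separated in male rodents and closer to continuous in females. On the hepatocyte, the hormone binds its receptor Ghr, the kinase Jak2 is activated, and Stat5b is phosphorylated, enters the nucleus and turns on genes such as Igf1, Socs2 and Cish. Socs2 and Cish then dampen the signal, and the repressor Bcl6 occupies many Stat5 sites between pulses. In mouse liver the male pulse pattern maintains a set of male-biased genes for steroid, fatty acid and drug metabolism and keeps female-biased genes low. Messenger RNA levels carry no direct reading of hormone pulses or of Stat5b phosphorylation.

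Stat proteins bind the palindrome TTCNNNGAA, and the promoters of 2 members hold it more than once, so these are shown as reference for the feedback arm of the axis. The sequences are from RefSeq on GRCm38.p6, read 5′ to 3′ on the strand of the gene, with the palindrome in capitals. The Cish window lies at chr9:107296559-107296688 on the plus strand, from 100 bases before the start site, and holds 2 copies. The Bcl6 window lies at chr16:23981344-23981483 on the minus strand, from 200 bases before the start site, and holds 3 copies.
Cish: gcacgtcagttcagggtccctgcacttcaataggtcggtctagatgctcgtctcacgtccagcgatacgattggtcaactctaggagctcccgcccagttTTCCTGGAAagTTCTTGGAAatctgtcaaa
Bcl6: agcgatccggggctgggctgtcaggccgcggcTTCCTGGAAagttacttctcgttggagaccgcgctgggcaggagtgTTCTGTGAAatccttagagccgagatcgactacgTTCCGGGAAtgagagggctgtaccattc
The search covered 250 bases before to 50 bases after each start site. It read the letters TTC, any 3 bases and GAA, which are the same on both strands. Of 32851 mouse promoter entries of that length, 8.3% held the palindrome, 0.457% held 2 or more copies and 0.0335% held 3 or more. For the members, 7 of 10 genes had an entry. No copy was found in the windows of Hsd3b5, Cyp2d9, Ghr, Stat5b and Igf1, and another Bcl6 promoter held 1. These matches describe letters in the windows and are not evidence of binding in these mice.

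Cyp4a12a and Cyp4a12b are near-identical paralogues on chromosome 4, and their coding sequences differed at 23 of 1524 bases (98.5% identity). Of the 50-base words in the full Cyp4a12a transcript, 48.9% occurred unchanged in the Cyp4a12b transcript. How the deposited values divided reads between the pair is therefore uncertain. Coding bases 624 to 683 of each, with the bases that differ in capitals, show one of the stretches where a read can tell them apart.
Cyp4a12a: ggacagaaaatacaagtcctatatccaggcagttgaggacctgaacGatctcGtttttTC
Cyp4a12b: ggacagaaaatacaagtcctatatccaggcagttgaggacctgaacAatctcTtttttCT

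Values are FPKM, mapped fragments scaled to transcript length and to the size of the library. The liver libraries had between 0.88 and 1.10 times the depth of ND liver 2, as read from the smallest steps of the values, and absolute depth is unknown. All livers carried hepatocyte transcripts, with 10 hepatocyte markers summing to 15919 to 46906 FPKM in HP, 38037 to 43869 FPKM in HR and 34668 to 39812 FPKM in ND livers. The lowest sum belonged to HP liver 3, where Alb was listed at 0 against at least 21466 FPKM in the other 8 livers. The 8 adipocyte markers summed to 214 to 312 FPKM in HP, 149 to 188 FPKM in HR and 43.7 to 72.8 FPKM in ND livers. The adipocyte-defining genes Adipoq, Plin1 and Lep averaged 0.52, 0.13 and 0.24 FPKM in HP livers. In ND livers Adipoq and Lep were listed at 0 and Plin1 was at most 0.04 FPKM. A set of 6 skeletal muscle markers summed to 109.7 FPKM in HP liver 2 and 23.4 FPKM in HP liver 3, against at most 3.36 FPKM in each of the other 7 livers. The 8 macrophage and Kupffer cell markers summed to 97.9 to 132 FPKM in HP, 66.0 to 190.4 FPKM in HR and 89.0 to 119.7 FPKM in ND livers. Spermatid markers were listed at 0 in all livers but reached 92413 FPKM in ND and 11231 FPKM in HR libraries of eWAT, which is taken up with the eWAT values. What part these transcripts have in the results below was not tested.

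Hsd3b5, a male-specific steroid reductase of mouse liver, had the largest change among the members. It had 2.58, 0.185 and 0.124 FPKM in HP livers, 82.0, 54.6 and 56.1 FPKM in HR livers and 54.5, 49.1 and 80.0 FPKM in ND livers. All HP livers lay far below every HR and ND liver, whereas HR and ND livers overlapped throughout. The means were 0.964 ± 1.40 FPKM in HP, 64.2 ± 15.4 FPKM in HR and 61.2 ± 16.5 FPKM in ND livers (SD, n = 3 each), so the HP mean was 63.4-fold lower than ND and 66.6-fold lower than HR. On the log2(FPKM + 1) scale, which understates changes of low values, HP minus ND was -5.17 (SE 0.38, limma adjusted p = 5.66e-05). HP minus HR was -5.25 (SE 0.38, limma adjusted p = 0.000146). HR minus ND was 0.08, with a 95% interval from -0.76 to 0.92. In bulk tissue, fewer cells that express a gene and less of its RNA per cell cannot be told apart.

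In all, 4 of 10 members passed the test in HP against ND livers, all of them lower: Hsd3b5, Cyp4a12b, Socs2 and Cyp4a12a. The calls of the Cyp4a12 pair may not be separate results, since the division of reads between the copies is uncertain. Of the 10633 genes tested, 31.7% passed, 17.6% as higher and 14.1% as lower. Of the genes that passed, 55.5% were higher in HP. That share was 31.1% when each library was rescaled to the same sum of FPKM, which moved the median of all genes from -0.02 to -0.20. After that rescaling 5 members were lower, Cyp2d9 being the fifth. No member passed in HR against ND livers, where 3.24% of all genes passed. In HP against HR livers 2 members passed, both lower, against 11.1% of all genes in either direction and 3.94% lower. These comparisons share libraries with each other, so their results are not independent.

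**Figure D1:**
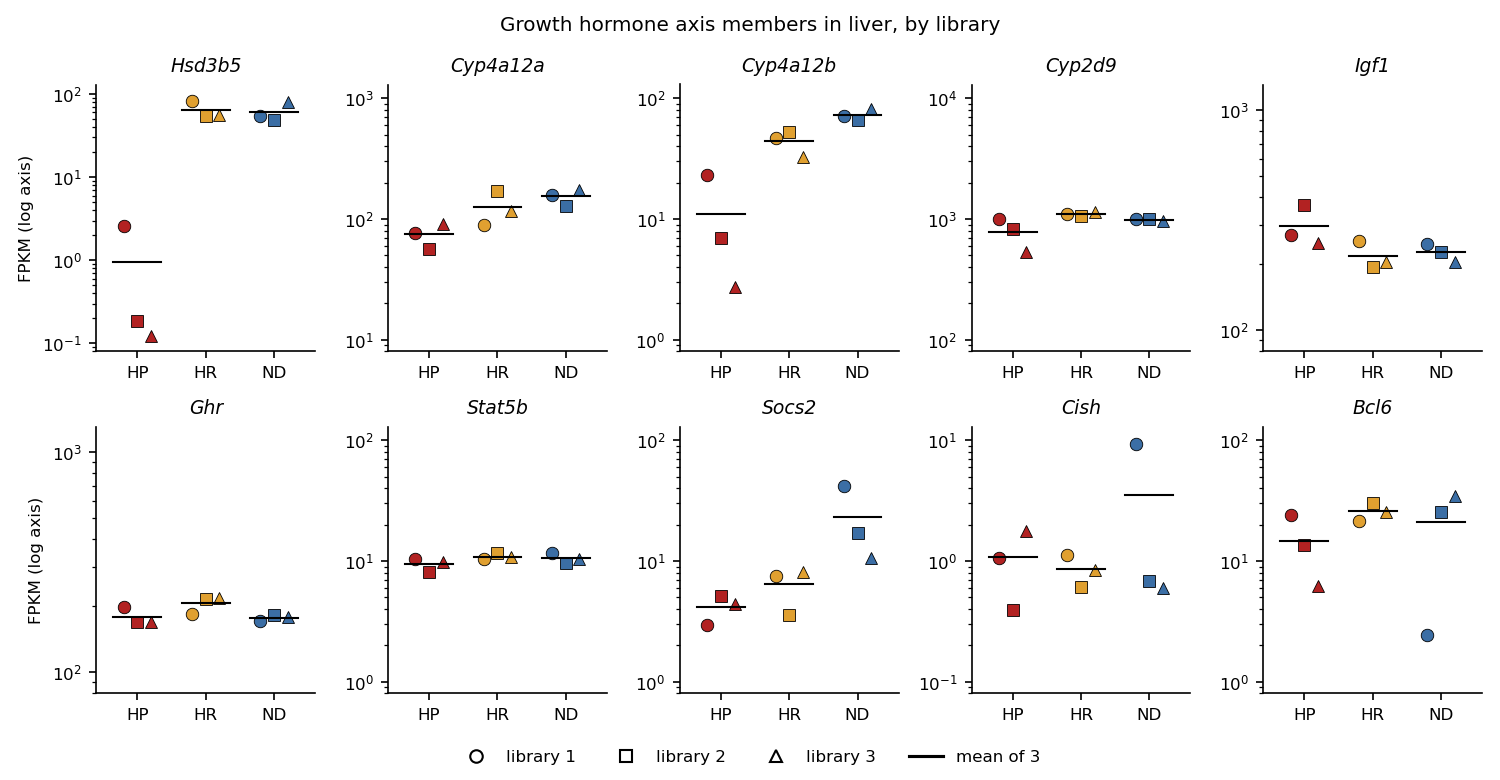
Each panel plots 1 member in the 9 liver libraries, with FPKM on a log axis, symbols for libraries 1 to 3 and a line at the mean of 3. HP libraries lie left, HR in the middle and ND right: Hsd3b5 sits at 2.58 FPKM or below in HP and at 49.1 FPKM or above elsewhere, while Ghr stays between 168 and 218 FPKM.

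Cyp4a12b, a fatty acid omega-hydroxylase of male liver and kidney, had 23.1, 6.98 and 2.72 FPKM in HP livers, 46.4, 52.5 and 32.9 FPKM in HR livers and 71.2, 66.2 and 81.2 FPKM in ND livers. No HP liver reached the lowest HR liver, and no HR liver reached the lowest ND liver. The HP mean was 6.67-fold lower than ND and 4.02-fold lower than HR. HP minus ND was -3.04 (SE 0.50, limma adjusted p = 0.00205), HP minus HR was -2.30 (SE 0.50, limma adjusted p = 0.0188), and HR minus ND was -0.74 (SE 0.50, limma adjusted p = 0.449). The HP to HR call was lost without HP liver 2 (limma adjusted p = 0.0738) or HR liver 2 (limma adjusted p = 0.0728), and with no filter on low values.

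Cyp4a12a, the more abundant of the pair, had 77.0, 56.2 and 90.6 FPKM in HP livers, 88.6, 170.0 and 117 FPKM in HR livers and 158, 128 and 175 FPKM in ND livers. HP lay below every ND liver, and overlapped with HR through HR liver 1. The pair of groups differed by -1.05 for HP minus ND (SE 0.24, limma adjusted p = 0.0086), while HP minus HR was -0.71 (limma adjusted p = 0.0741) and HR minus ND was -0.33 (limma adjusted p = 0.473). Since reads may be divided between the copies in either way, their sum is the safer quantity. It averaged 85.5 ± 19.6 FPKM in HP, 169 ± 46.9 FPKM in HR and 227 ± 30.7 FPKM in ND livers (SD, n = 3 each). The HP sums, 63.2 to 100 FPKM, lay below all HR sums, 135 to 222 FPKM, and all ND sums, 195 to 256 FPKM. The sum was not tested. Cyp4a12b made up 12.3% ± 10.1 of that sum in HP, 26.7% ± 6.74 in HR and 32.3% ± 1.55 in ND livers. Within HP livers the share ran from 2.91% to 23.1%, a range far wider than among ND livers. These shares rest on the uncertain division of reads between the copies.

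Cyp2d9, a male-biased steroid 16-alpha-hydroxylase, was the most abundant member. It had 992, 833 and 533 FPKM in HP livers, 1099, 1056 and 1144 FPKM in HR livers and 1001, 999.7 and 955 FPKM in ND livers. HR livers lay above all HP and ND livers, while HP liver 1 lay within the ND range and the other HP livers lay below it. HP minus ND was -0.37 (95% interval -0.80 to 0.06, limma adjusted p = 0.165) and HP minus HR was -0.53 (95% interval -0.96 to -0.10, limma adjusted p = 0.0993). Neither passed, but without HP liver 1, the highest of its group, both did, at limma adjusted p = 0.0423 against ND and 0.0297 against HR. Without HP liver 3, the lowest of its group, neither did. HP minus ND was then -0.12 (limma adjusted p = 0.541) and HP minus HR was -0.27 (limma adjusted p = 0.21). HR minus ND was 0.16 (95% interval -0.27 to 0.59).

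The 4 male-biased targets did not rank the HP livers alike. HP liver 1 was highest of its group for Hsd3b5, Cyp4a12b and Cyp2d9, and HP liver 3 was lowest for all 3 genes. For Cyp4a12a the order differed, with HP liver 3 highest. On the log2(FPKM + 1) scale the SD among HP livers was 1.35 for Cyp4a12b and 0.94 for Hsd3b5, values that 18 and 49 of 10633 genes reached or passed.

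**Figure D2:**
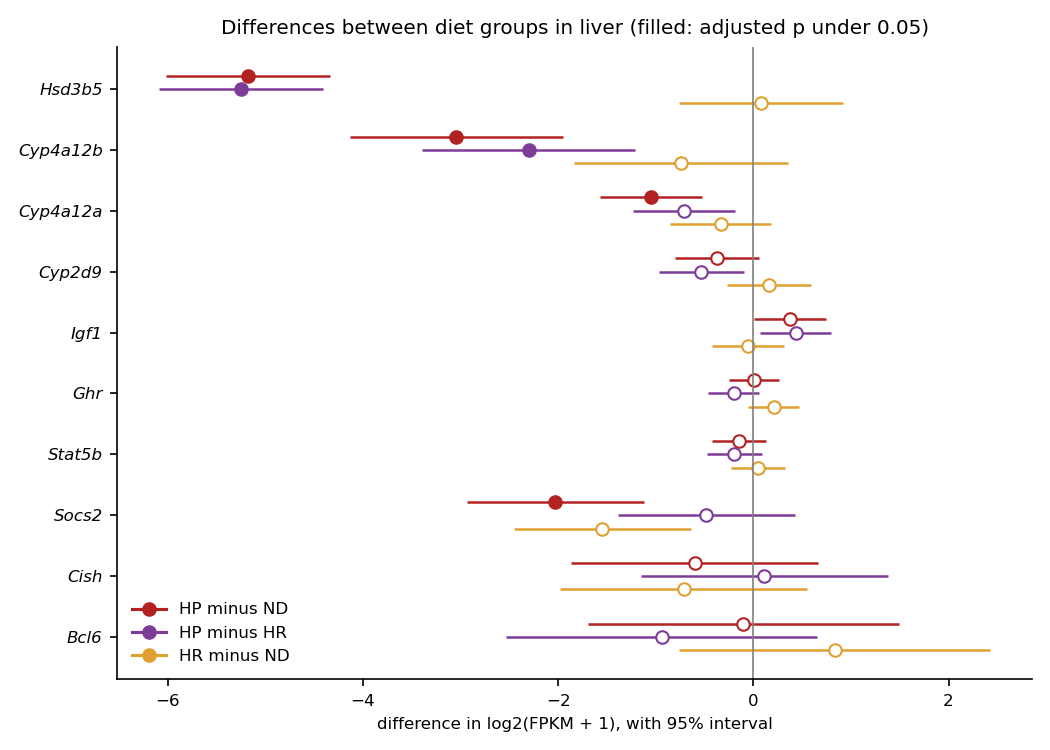
Differences between diet groups in liver in log2(FPKM + 1), with 95% intervals, for each member and each comparison. Filled points passed an adjusted p of 0.05: Hsd3b5 lies at -5.17 and -5.25 for the HP comparisons and at 0.08 for HR minus ND, and the Ghr and Stat5b points lie within 0.21 of 0.

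The receptor and Stat5b showed no detectable difference between the diet groups. Ghr, the growth hormone receptor, had 196, 168 and 169 FPKM in HP livers, 183, 213 and 218 FPKM in HR livers and 170.2, 182 and 178 FPKM in ND livers. The HP to ND difference was 0.01 (95% interval -0.25 to 0.27, limma adjusted p = 0.965). The HR livers were the highest as a group, each above all ND livers, yet HR minus ND at 0.21 did not pass (limma adjusted p = 0.36). Stat5b, the main transcription factor of the pathway in liver, had 10.4, 8.07 and 9.80 FPKM in HP livers, 10.3, 11.7 and 10.7 FPKM in HR livers and 11.7, 9.62 and 10.3 FPKM in ND livers. Its groups overlapped, with HP minus ND at -0.15 (95% interval -0.43 to 0.13, limma adjusted p = 0.397). These intervals leave out a change of Ghr or Stat5b as large as that of any member that passed.

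Socs2, a suppressor of cytokine signalling that restrains growth hormone action, had 2.97, 5.11 and 4.38 FPKM in HP livers, 7.55, 3.58 and 8.05 FPKM in HR livers and 41.6, 17.0 and 10.5 FPKM in ND livers. Every high-fat liver, prone or resistant, lay below every ND liver. The HP mean was 5.55-fold and the HR mean 3.60-fold lower than ND. HP minus ND was -2.03 (SE 0.41, limma adjusted p = 0.00533), and it passed without ND liver 1 too, at -1.51 (limma adjusted p = 0.0124). HR minus ND was -1.55 (SE 0.41, limma adjusted p = 0.0706) and did not pass. It was -1.97 without ND liver 3, where it passed (limma adjusted p = 0.0378), and -1.03 without ND liver 1 (limma adjusted p = 0.181). HP minus HR was -0.48 (limma adjusted p = 0.447), and those groups overlapped. By means, Socs2 in HR livers lay nearer to HP than to ND, while Hsd3b5, Cyp4a12a and Cyp4a12b lay nearer to ND. This contrast between genes was not tested.

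Cish, a second feedback inhibitor of the same family, had 1.05, 0.392 and 1.77 FPKM in HP livers, 1.11, 0.605 and 0.838 FPKM in HR livers and 9.31, 0.677 and 0.595 FPKM in ND livers. A single library, ND liver 1, stood above all others, and the other 8 livers spanned 0.392 to 1.77 FPKM with no separation by diet. HP minus ND was -0.60 (SE 0.58, limma adjusted p = 0.446) and turned to 0.28 without ND liver 1 (limma adjusted p = 0.45). Bcl6, the repressor, had 24.1, 13.6 and 6.19 FPKM in HP livers, 21.5, 30.3 and 25.4 FPKM in HR livers and 2.44, 25.7 and 34.7 FPKM in ND livers. Here ND liver 1 was the lowest of all livers. HP minus ND was -0.10 (SE 0.72, limma adjusted p = 0.927) with all livers and -1.16 without ND liver 1 (limma adjusted p = 0.0713).

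ND liver 1 thus had the highest Socs2 and Cish and the lowest Bcl6 of the 9 livers. Of 10633 genes, 26 were more than 1 log2 unit above and 18 more than 1 log2 unit below both other ND livers there. All 3 members were among them. The SD among ND livers on the log2(FPKM + 1) scale was 1.84 for Bcl6, 1.53 for Cish and 0.96 for Socs2, against a median of 0.17 over all genes, and 3, 9 and 32 genes had an SD at least as large. The circadian output gene Dbp was also low there, with 11.3 FPKM against 29.7 and 31.3 FPKM in the other ND livers, as was the clock gene Per3, with 1.94 against 6.01 and 6.63 FPKM. Conversely the growth-associated transcription factor gene Myc was at 8.08 FPKM against 1.04 and 1.02 FPKM, and the stress-responsive gene Gadd45g at 32.7 against 4.69 and 5.51 FPKM. Dbp, Per3, Myc and Gadd45g were picked after their values were seen, their part in the result was not tested, and the labels give no time of day for the tissue collection.

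**Figure D3:**
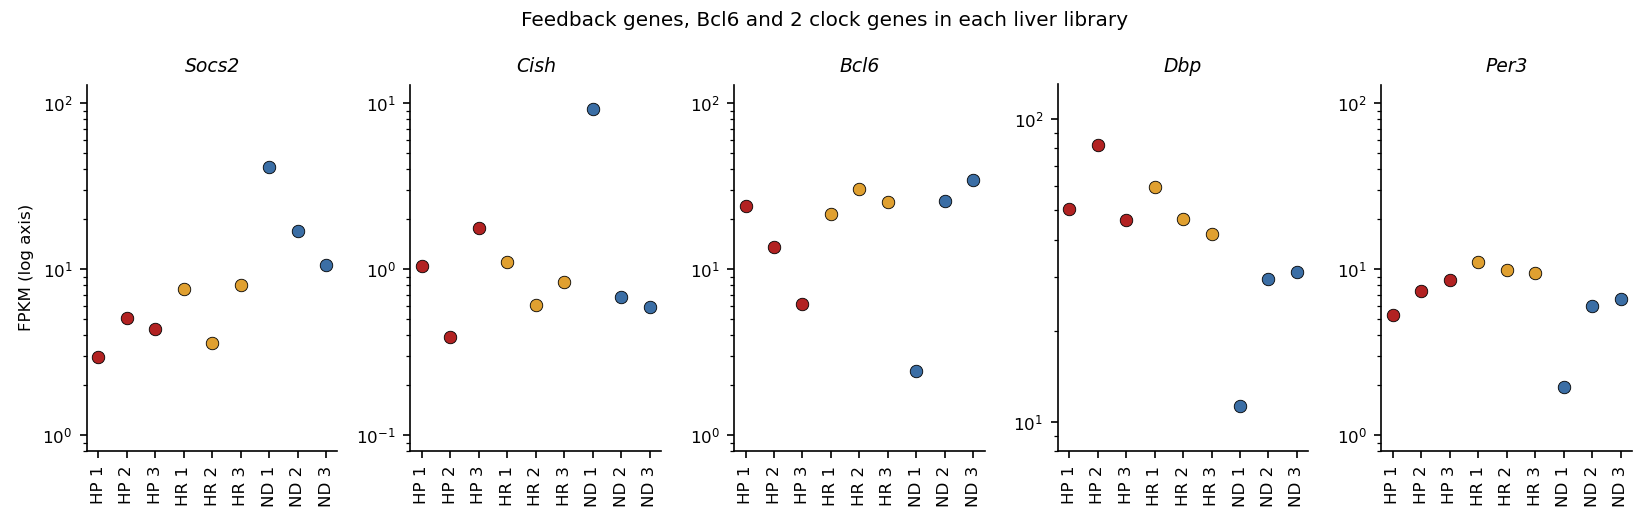
Socs2, Cish, Bcl6 and the clock-controlled genes Dbp and Per3 in each of the 9 liver libraries, with FPKM on a log axis and HP left of HR and ND. ND 1 is highest for Socs2 (41.6 FPKM) and Cish (9.31 FPKM) and lowest for Bcl6 (2.44 FPKM), Dbp (11.3 FPKM) and Per3 (1.94 FPKM).

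Igf1, the circulating growth factor that liver makes in response to growth hormone, did not move with Hsd3b5. It had 269, 369 and 249 FPKM in HP livers, 253, 194 and 204 FPKM in HR livers and 245, 227 and 203 FPKM in ND livers. Every HP liver was above every ND liver, though the lowest HP liver exceeded the highest ND liver only slightly, and HP overlapped with HR. The HP mean was 1.32 times the ND mean and 1.36 times the HR mean. Neither HP minus ND at 0.38 (95% interval 0.01 to 0.74, limma adjusted p = 0.106) nor HP minus HR at 0.43 (95% interval 0.07 to 0.80, limma adjusted p = 0.11) passed. Without HP liver 2, the highest, HP minus ND was 0.21 (limma adjusted p = 0.372) and HP minus HR was 0.26 (limma adjusted p = 0.373). Neither passed in any of 17 alternatives. HR minus ND was -0.06 (limma adjusted p = 0.887).

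In all, 5 of 10 members had groups that did not overlap between HP and ND livers, where 44.9% of all genes tested did. For HR against ND it was 4 of 10, against 25.8% of all genes, and for HP against HR 3 of 10, against 34.0%. By mean FPKM, which is per length, ND livers ranked Cyp2d9 first, followed by Igf1, Ghr, Cyp4a12a, Cyp4a12b, Hsd3b5, Socs2, Bcl6, Stat5b and Cish. Of these neighbours, Ghr and Cyp4a12a overlapped, as did Cyp4a12b and Hsd3b5 and each pair from Socs2 to Stat5b. In HP livers Hsd3b5 ranked last, with its values overlapping those of Cish.

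Of 20 other signalling genes listed for the receptor pathway 19 were tested, and in HP against ND livers 1 rose, 6 fell and 12 did not pass, with a median of -0.31 against -0.02 over all genes. In either direction that is close to the 31.7% of all genes that passed in this comparison. By direction, the 6 lower of 19 exceeded the 14.1% of all genes that were lower, and the 1 higher fell short of the 17.6% that were higher. Stat5a, the close relative of Stat5b, averaged 7.05 ± 1.33 FPKM in HP and 4.63 ± 0.98 FPKM in ND livers (SD, n = 3 each) and rose by 0.52 on the log2 scale (limma adjusted p = 0.033). Stat3, which mediates cytokine signals in hepatocytes, averaged 15.5 ± 2.22 FPKM in HP and 25.9 ± 4.45 FPKM in ND livers, a difference of -0.70. The other genes that fell included Irs2 at -1.26 and Irs1 at -0.79, which carry the insulin signal, the phosphatase gene Ptpn11 at -0.63, and Socs7 at -0.59. Jak2, the kinase bound to the receptor, was at -0.31 (limma adjusted p = 0.117), and Socs3, another feedback inhibitor, was at -0.07. The 6 lower genes became 3 without ND liver 1 or without HP liver 2 and 4 without ND liver 3, without HP liver 3 or with no filter, and 9 after rescaling to the same sum. Among other settings and left-out libraries, the count of 1 higher became 0 without ND liver 2 or 3, without HP liver 1 or 3, with no filter and after rescaling. No gene of the list passed in HR against ND livers, and only Stat3 passed in HP against HR livers, at -0.59. That count of 1 became 0 without HP liver 1 or 2, without HR liver 2 or 3 and with no filter.

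Among 8 tested genes of the IGF system, of 16 listed, 2 rose and 3 fell in HP against ND livers, with a median of -0.23. In the same comparison 17.6% of all genes rose and 14.1% fell. Igfbp7, an IGF-binding protein of vessels and connective tissue, averaged 78.9 ± 18.6 FPKM in HP and 31.3 ± 2.07 FPKM in ND livers, a rise of 1.28. Igfbp3, the main carrier of IGF1 in blood, averaged 7.53 FPKM in HP and 4.02 FPKM in ND livers, a rise of 0.75. Igfbp1, which insulin represses in liver, averaged 20.6 ± 9.16 FPKM in HP and 73.9 ± 31.5 FPKM in ND livers, a difference of -1.81. Igfbp2 averaged 236 ± 93.5 FPKM in HP and 477 ± 46.8 FPKM in ND livers, a difference of -1.09. Insr, the insulin receptor gene, differed by -0.49. Igfals, which encodes the acid-labile subunit of the circulating IGF complex, averaged 40.3 FPKM in HP and 47.9 FPKM in ND livers and did not pass (limma adjusted p = 0.158). The 2 rises became 1 without ND liver 1, HP liver 2 or HP liver 3, with no filter and after rescaling. In HR livers Igfbp1 averaged 19.5 ± 2.77 FPKM. It was the only gene of the list to pass against ND, at -1.79 (limma adjusted p = 0.026), where 3.24% of all genes passed. No gene of the list passed there without ND liver 1 or 3, without any 1 of the HR livers, or with no filter. In HP against HR livers, where 11.1% of all genes passed, Igfbp7 at 1.77 and Igfbp3 at 1.04 were higher, and Igfbp4, Igfals and Igfbp2 were lower. The 2 higher genes became 1 without HP liver 2, HP liver 3 or HR liver 2. The 3 lower genes became 1 without HP liver 2, HR liver 1 or HR liver 3 and 0 without HP liver 3, without HR liver 2 or with no filter.

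Other genes known for higher expression in male liver fell alongside Hsd3b5 and the Cyp4a12 pair. Of 20 tested genes of 22 listed, 14 were lower in HP against ND livers, against 14.1% of all genes. None was higher, against 17.6% of all genes, and the list median was -1.29. With no filter on low values, 13 of 22 were lower and none was higher, with a median of -1.20. Serpina1e, a male-biased serpin gene, averaged 72.3 ± 42.3 FPKM in HP and 927 ± 364 FPKM in ND livers, a difference of -3.79. Slco1a1, an organic anion transporter gene, averaged 17.3 FPKM in HP and 147 FPKM in ND livers, a difference of -3.76. In HP against HR livers, where 3.94% of all genes were lower, 10 of the list were lower and none higher. Serpina1e was at -3.59 and Mup7, a major urinary protein gene, at -3.46. The count of 10 became 3 without HP liver 2, 4 without HR liver 2 and 5 without HR liver 3 or with no filter. In HR against ND livers, where 3.24% of all genes passed in either direction, 1 of 20 was lower, Serpina12 at -0.86, and none was higher.

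Among genes known for higher expression in female liver, some rose in HP livers, with most of the list too low to judge. With no filter on low values, 8 of 26 were higher and 2 were lower in HP against ND livers, with a median of 0.22. The filter of 1 FPKM in 3 libraries left 13 of 28 listed. Of these, 7 were higher and 1 was lower, against 17.6% and 14.1% of all genes, with a median of 0.82. A gene at low levels in ND livers could enter that smaller set only through the group where it was high, so its count and median give no support for a direction. Cyp2b9, a female-biased cytochrome P450, averaged 95.3 ± 41.4 FPKM in HP and 2.13 ± 1.99 FPKM in ND livers, a difference of 5.01. Cyp2a4 averaged 15.5 FPKM in HP and 0.15 FPKM in ND livers, a difference of 3.40. The lower gene was Acot3, an acyl-CoA thioesterase gene, with 27.9 FPKM in HP and 56.8 FPKM in ND livers, and no gene was lower without ND liver 2 or without any 1 of the HP livers. In HR against ND livers, where 3.24% of all genes passed in either direction, 4 of the 13 were higher. They were led by Cyp2b9 with 12.7 FPKM in HR, at 2.29, and Cyp2a22 at 1.55. The count of 4 became 0 without ND liver 1, ND liver 3, HR liver 1 or HR liver 2, and 2 without HR liver 3. With no filter the calls turned, with 0 of 26 higher and 2 lower. In HP against HR livers, where 11.1% of all genes passed in either direction, 5 of the 13 were higher, with Cyp2b9 at 2.73 and Cyp2a4 at 2.59. The count of 5 became 2 without any 1 of HP livers 2 and 3 and HR livers 2 and 3, and with no filter. Both lists were assembled from general knowledge of sex-biased liver genes with earlier results of these data known.

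**Figure D4:**
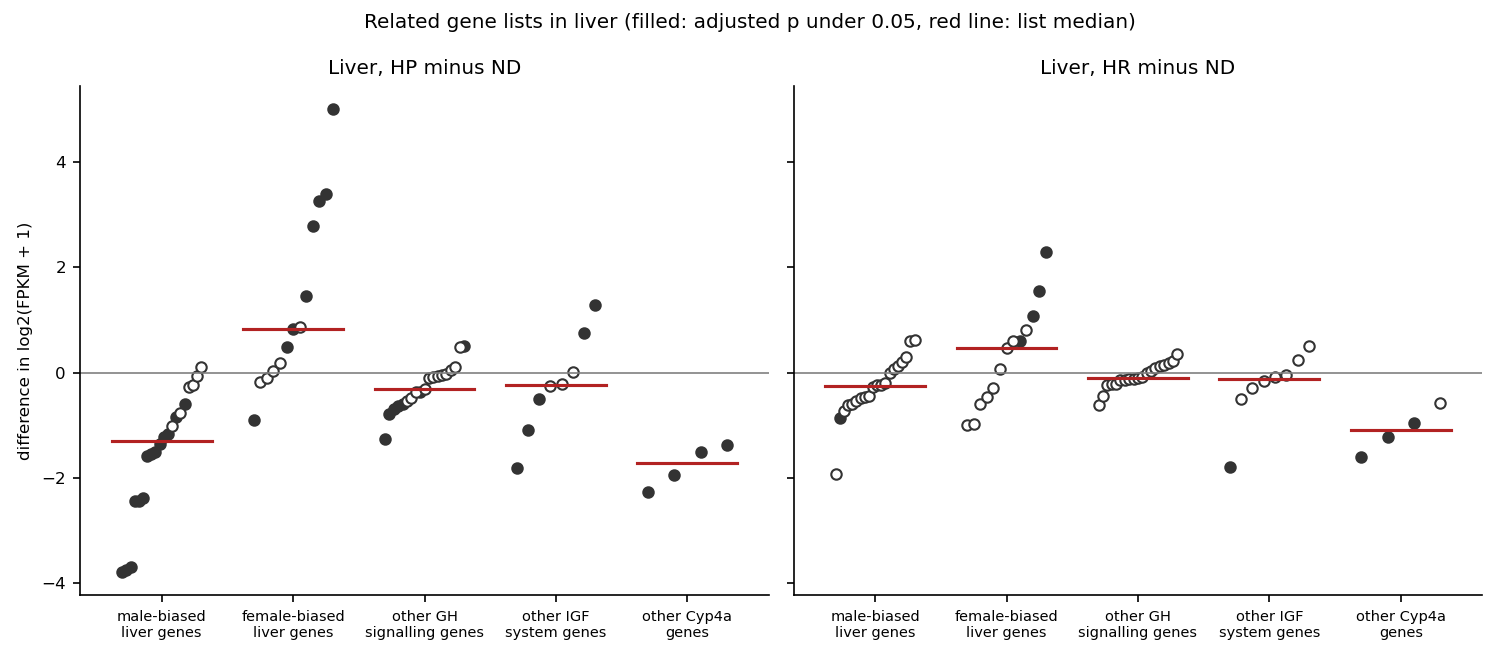
Each point is 1 tested gene of a list, with its difference in log2(FPKM + 1) in liver for HP minus ND on the left and HR minus ND on the right; filled points passed an adjusted p of 0.05 and red lines are list medians. In HP minus ND the male-biased list has its median at -1.29 and the female-biased list at 0.82, and in HR minus ND they lie at -0.25 and 0.47; only genes that passed the filter on low values are drawn.

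Among 15 tested transcription factor genes that set sex-biased expression in liver, 3 were higher and 1 lower in HP against ND livers, a share below the 31.7% of all genes that passed there. Cebpb, which also responds to inflammatory signals, averaged 28.8 ± 6.72 FPKM in HP and 7.87 ± 0.25 FPKM in ND livers, a difference of 1.73. Cebpa differed by 0.55, and Hnf4a, a hepatocyte master regulator, by -0.44 with 97.3 FPKM in HP and 134 FPKM in ND livers. After rescaling to the same sum of FPKM, 1 was higher and 5 were lower. None was lower without ND liver 1, ND liver 3, HP liver 2, HP liver 3 or HR liver 2, or with no filter. In HP against HR livers Cebpb was higher at 1.19, and Rxra at -0.69 and Hnf4a at -0.55 were lower. Those 2 became 1 without HP liver 1 and 0 without HP liver 2 or 3 or HR liver 2 or 3, and with no filter.

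The gene families of the 4 targets did not all move with them. Hsd3b5 shares 95.2% of its coding sequence with Hsd3b4, which was listed at 0 in every liver. Its tested relatives Hsd3b2, Hsd3b3 and Hsd3b7 did not pass in any liver comparison. All 4 other tested Cyp4a genes fell in HP against ND livers, where 14.1% of all genes were lower. Cyp4a14, a target of the fatty acid receptor PPARα, averaged 901 ± 185 FPKM in HP and 3529 ± 1007 FPKM in ND livers, a difference of -1.95. Cyp4a31 differed by -2.28, Cyp4a10 by -1.50 and Cyp4a32 by -1.38. In HR against ND livers, where 3.24% of all genes passed, Cyp4a31 at -1.61, Cyp4a14 at -1.23 and Cyp4a10 at -0.95 were lower. In HP against HR livers, where 3.94% of all genes were lower, Cyp4a10 was lower at -0.55. That count of 1 became 0 without HP liver 2 or 3 and without any 1 of the HR livers. It also became 0 with no filter and with the correction for length and GC content. None of the 5 other tested Cyp2d genes passed in HP against ND livers, with Cyp2d10 at 0.28 and Cyp2d26 at 0.24, and 1 was lower after rescaling to the same sum. Cyp2d10 shares 92.5% of the Cyp2d9 coding sequence. Of the 50-base words in the Cyp2d9 transcript, 9.26% occurred in the Cyp2d10 transcript, so reads may be divided between them in part.

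The genes whose values followed Hsd3b5 most closely over the 9 livers, by the root mean square (RMS) difference of the centred log2(FPKM + 1) values among 6994 genes, were Serpina1e (0.89), Slco1a1 (0.99) and Mup7 (1.19). For comparison, Hsd3b5 itself varied about its mean by an RMS of 2.51. For Socs2, with an RMS of 1.02 of its own, the nearest were Rgs3 (0.53), Got1 (0.54) and E2f8 (0.54), all with their highest or second-highest value in ND liver 1. For Igf1, with an RMS of 0.27, they were Tbl3 (0.066), Caml (0.076) and Lsm10 (0.081), each highest in HP liver 2. Among the members the nearest pair was Ghr and Stat5b (0.135), both with little variation to match, and the nearest to Hsd3b5 was Cyp4a12b (1.29).

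In eWAT, the 4 male-biased targets were at 2.98 FPKM or less in all libraries, and the other 6 members were detected throughout. ND 1 and HR 2 of this tissue stood apart. Their spermatid transcripts summed to 92413 and 11231 FPKM, ND 1 also carried 17792 FPKM of epididymis markers, and their Ghr, Igf1, Stat5b and Bcl6 values were the lowest of the tissue. ND 3 and HP 1 held 2282 and 1738 FPKM of spermatid transcripts. Results are therefore given with all 9 eWAT libraries and with the 7 left after removing ND 1 and HR 2, which are 3 HP, 2 HR and 2 ND libraries.

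Ghr in eWAT had 276, 299 and 291 FPKM in HP, 497, 84.0 and 440.1 FPKM in HR and 18.2, 618 and 563 FPKM in ND libraries. Aside from ND 1 and HR 2, all HP libraries lay below all HR libraries, and these below all ND libraries. With 9 libraries none of the 6 members passed in any eWAT comparison. Of all genes 2.11% passed there in HP against ND, and 0 passed in HR against ND and in HP against HR by limma, where 392 and 679 of 14430 genes had an unadjusted p under 0.05. With 7 libraries Ghr was lower in HP than in ND at -1.03 (SE 0.12, limma adjusted p = 0.00169) and lower in HP than in HR at -0.70 (SE 0.12, limma adjusted p = 0.0284). The call against ND held in 11 of 11 alternatives of that fit, and the call against HR in 5 of 11, with adjusted p up to 0.192 by limma. The share of all genes called was 23.1% and 6.46% in these comparisons. With 9 libraries HP minus ND had the opposite sign, at 0.62. The macrophage markers also differed by diet in eWAT, summing to 2513 to 3554 FPKM in HP, 388 to 1461 FPKM in HR and 50.8 to 477 FPKM in ND libraries. What part this had in the Ghr values, or in the Igf1 and Bcl6 values below, was not tested.

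Igf1 in eWAT had 72.4, 70.4 and 77.4 FPKM in HP, 51.1, 13.5 and 60.3 FPKM in HR and 9.05, 56.4 and 49.1 FPKM in ND libraries. HP lay above all other libraries. With 7 libraries HP minus ND was 0.47 (SE 0.13, limma adjusted p = 0.038), a call that held in 6 of 11 alternatives of that fit. Bcl6 had 20.8, 19.8 and 20.95 FPKM in HP, 19.4, 9.18 and 23.4 FPKM in HR and 0.772, 27.5 and 37.8 FPKM in ND libraries. With 7 libraries HP minus ND was -0.63 (SE 0.17, limma adjusted p = 0.0362), a call that held in 3 of 11 alternatives. Stat5b, Socs2 and Cish did not pass with 7 libraries either. Cish had 0.661, 1.03 and 0.783 FPKM in HP, 1.64, 1.58 and 5.11 FPKM in HR and 0.635, 1.07 and 1.12 FPKM in ND libraries. Every HR library thus lay above all HP and ND libraries. With 7 libraries Cish was at -1.14 for HP minus HR (limma adjusted p = 0.119) and 0.94 for HR minus ND (limma adjusted p = 0.283). In HR against ND none of the 6 passed, with Ghr at -0.33 (limma adjusted p = 0.248) and 4.14% of all genes called.

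Socs2 in eWAT had 5.81, 6.95 and 4.71 FPKM in HP, 5.31, 4.74 and 5.76 FPKM in HR and 2.17, 4.49 and 5.11 FPKM in ND libraries, levels close to those of HP livers. Its ND livers, at 10.5 FPKM or more, stood above all eWAT libraries. The change in liver (HP minus ND) minus that in eWAT was -2.54 (SE 0.59, limma adjusted p = 0.022) with 18 libraries and -2.25 (limma adjusted p = 0.010) with 16. Of all genes 4.98% and 27.9% passed this test of the difference itself. The call held in 22 of 26 alternatives, and 3 of its losses were without liver HP 1, eWAT HP 1 or eWAT HP 2. The remaining loss came when liver and eWAT libraries of the same diet and number were treated as pairs, which the labels do not state. For Ghr the same difference was 1.04 with 16 libraries (limma adjusted p = 0.000268) and was not called with 18. No member passed the test of the tissue difference for HR minus ND, where Socs2 was at -1.95 (limma adjusted p = 0.492) and 0.06% of all genes passed. None of the 6 passed it for HP minus HR either, where 0.0733% of all genes passed.

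Compared between tissues, Igf1 was higher in liver than in eWAT in each diet group, by 1.98 in HP, 2.59 in HR and 2.88 in ND with 18 libraries, and by 1.98, 1.94 and 2.07 in the same order with 16. The median of all genes was itself -0.84, -1.003 and -0.85 in these comparisons, where 53.5%, 53.5% and 49.7% of all genes passed. Relative to the median with 16 libraries, Igf1 stood 2.90, 2.75 and 2.91 higher in liver. Socs2 relative to the median stood 0.51 higher in HP, 0.93 in HR and 2.68 in ND. Stat5b stood at 0.01, -0.05 and -0.02, which is where the typical gene lay. Ghr relative to the median stood at 0.23 in HP, -0.38 in HR and -0.89 in ND. These values relative to the median were not tested. Before that subtraction, with 16 libraries, Ghr was at -0.70 in HP, -1.19 in HR and -1.74 in ND. Stat5b was at -0.92, -0.86 and -0.86 in the same order. Both genes were called lower in liver in each diet group, as were 8803, 8499 and 8935 of 13730 genes. With 18 libraries neither gene was called in any diet group.

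**Figure D5:**
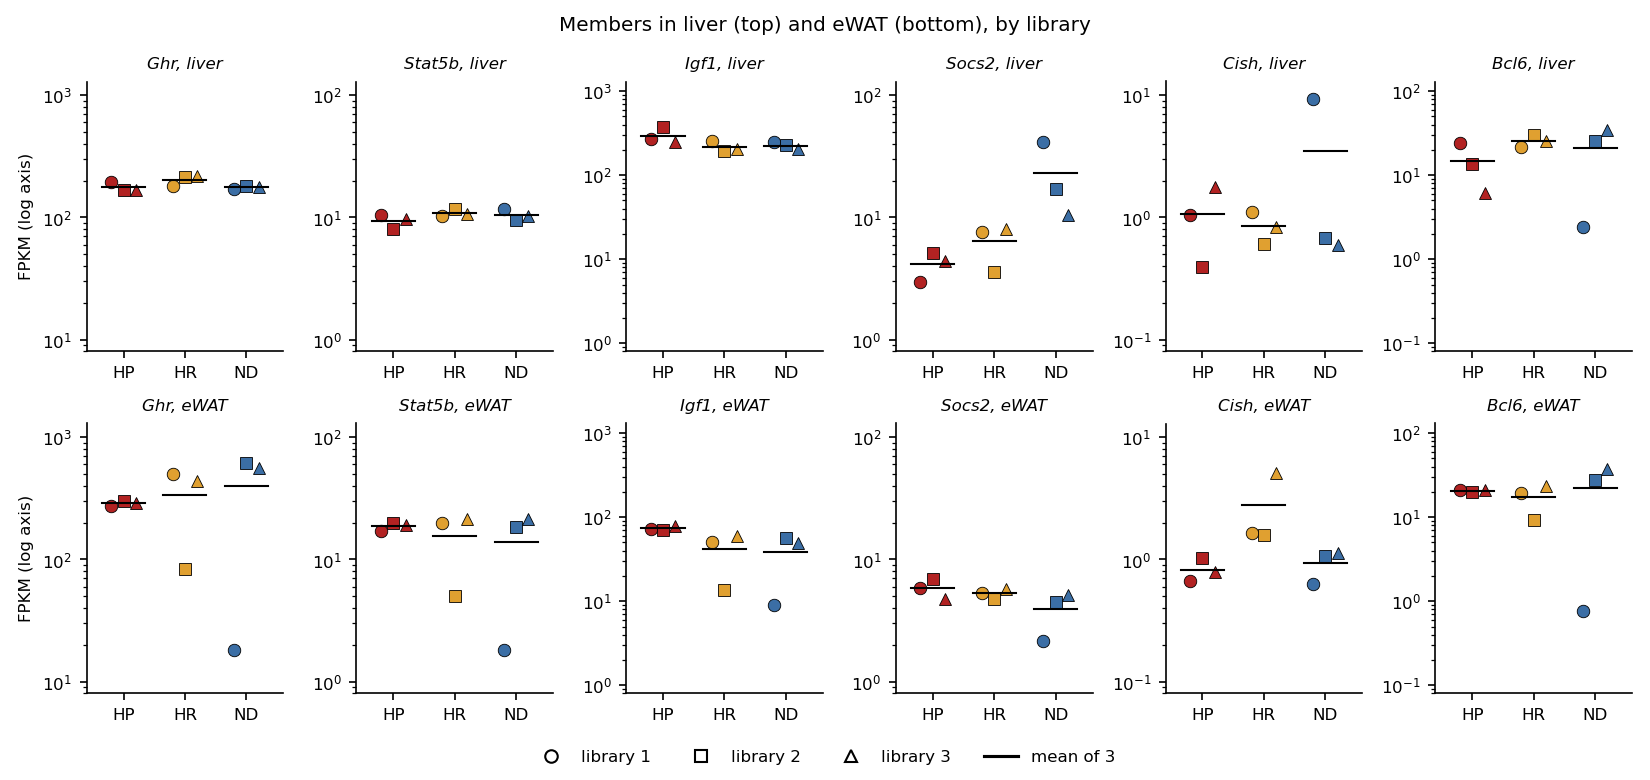
The 6 members compared between tissues, in liver (top) and eWAT (bottom), with FPKM on a log axis, HP left of HR and ND, symbols for libraries 1 to 3 and a line at the mean of 3. Ghr in eWAT is low in ND 1 (18.2 FPKM) and HR 2 (84.0 FPKM), and Socs2 reaches 10.5 FPKM or more in ND livers alone.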

How the data were processed

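The authors deposited 1 FPKM value per gene and library in 18 libraries. TruSeq libraries were made from TRIzol-extracted RNA, per the labels' protocols. The submitters' processing notes name CASAVA 1.8.2, STAR 2.4.0 and Cufflinks 2.1.1. Roles of the tools, genome build, annotation and strand handling: not given in the sources used here. GENCODE M21 named 22671 of 23474 gene identifiers. The members and lists were chosen with earlier results of these data known.

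Log2(FPKM + 1) values were fitted with limma 3.58.1 (R 4.3.3, trend, two-sided) over the 9 libraries of a tissue, or all 18. Genes needed at least 1 FPKM in 3 libraries. P-values were Benjamini-Hochberg adjusted over all genes tested (threshold 0.05). The fit was tested on simulated data. Named are all members, the genes of each list with the greatest called changes, at least 5 FPKM and groups that do not overlap, a few fixed pathway and family genes, and the 3 genes most like Hsd3b5, Socs2 and Igf1. Other listed genes named were picked after their values were seen. Coding sequences were compared with Biopython 1.88.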

Additional observations from a re-analysis of the deposited data

Results flagged for a closer look

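The diet response of Socs2 differed between the tissues. HP minus ND in liver, less HP minus ND in eWAT, was -2.54 on the log2(FPKM + 1) scale (limma adjusted p = 0.022), a test of the difference itself. It was called in 22 of 26 alternatives, and lost without liver HP 1, eWAT HP 1 or eWAT HP 2. It was also lost when liver and eWAT libraries of the same diet and number were treated as pairs, a pairing that the labels do not state. Socs2 averaged 4.15 FPKM in HP and 23.1 FPKM in ND livers, and 5.82 FPKM in HP and 3.93 FPKM in ND eWAT.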

How the results depend on the processing

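The depth of the libraries is known only relative to each other, so levels near 0, such as Hsd3b5 in HP livers, have no counting interval. Over 17 alternatives of HP against ND in liver, Hsd3b5, Cyp4a12a, Cyp4a12b and Socs2 kept their calls. The number of members called in liver ran from 4 to 5 for HP against ND, 0 to 1 for HR against ND and 1 to 3 for HP against HR when 1 library was left out, and was 1 without a filter for HP against HR. In eWAT, HP against ND gave 3 calls with 7 libraries and 1 with 5, and HP against HR gave 1 with either, against 0 with all 9; leaving out 1 of the 7 gave 1 to 3 for HP against ND and 0 to 1 for HR against ND and HP against HR, and no filter gave 0 for HP against HR. The tissue difference of HP minus ND gave 2 calls with 7 eWAT libraries and 0 to 1 with 1 library left out. It gave 0 with liver and eWAT libraries of the same diet and number treated as pairs. Liver against eWAT gave 3 calls in HP and HR and 4 in ND with 7 or 5 eWAT libraries, 1 to 2 in HP and HR and 2 to 3 in ND with 1 left out, and 2 in HR with quantile normalization.

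With 7 and 5 eWAT libraries these values changed sign and were called there: HP minus ND of Ghr at -1.03 and -1.06, HP minus HR of Ghr at -0.70 and -0.66, the tissue difference of HP minus ND of Ghr at 1.04 and 1.07, liver minus eWAT in ND of Stat5b at -0.86 and -0.75, and, with 7, HP minus ND of Bcl6 at -0.63. Others changed sign without a call, such as HR minus ND of Ghr (-0.33) and Bcl6 (-0.58), HP minus ND of Stat5b (-0.09), the tissue difference of Ghr for HR minus ND (0.54) and HP minus HR (0.50), and liver minus eWAT in ND of Bcl6 (-1.16), all with 7; the cause was not tested. With 5, a group may hold 1 library, assumed to vary like the rest.

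All genes called numbered 3372 for HP against ND livers (1716 without HP liver 2). For HR against ND they numbered 345 (91 without ND liver 1, 184 with the replicate number as a block). For HP against HR they numbered 1185 (229 without HP liver 2, 580 without a filter). In eWAT HP against ND had 304, 0 with the block and 3013 with 7 libraries. Same-numbered libraries of different diet groups correlated with mixed signs, from -0.35 to 0.43 in liver. Those of the same diet group in liver and eWAT did so too, from -0.24 to 0.28. With 3 libraries per group these correlations cannot decide whether libraries are paired, and the labels do not say. With liver and eWAT libraries paired by diet and number, Socs2 lost its tissue difference. With the replicate number as a block, liver calls of members stayed at 4, 0 and 2. List counts fell from 1 to 0 higher signalling genes (HP against ND), 4 to 2 higher female-biased genes (HR against ND), and, for HP against HR, 3 to 1 lower IGF genes, 2 to 1 lower transcription factors and 1 to 0 lower Cyp4a genes.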
